A study of Homo sapiens with 7 samples.

Results

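Wnt target genes were examined for trimethylation of lysine 4 of histone H3 (H3K4me3), the mark of active and poised promoters, at 10 genes: the nuclear factors LEF1 and TCF7, the receptor LGR5, the feedback inhibitors AXIN2, NKD1, RNF43 and ZNRF3, and the effectors MYC, CCND1 and ASCL2. The members were all listed regions that overlapped 3 kb on either side of the transcription start of each gene on hg19. This gave 11 of the 30840 regions of the deposited table. No gene lacked a region: 9 genes had 1 region and RNF43 had 2.

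Chromatin immunoprecipitation and sequencing (ChIP-seq) was done in HCT116, a human colon cancer line, of the genotype KDM5A-/-, which lacks the H3K4 demethylase KDM5A. The groups were KDM5A-/- cells transfected with mutant KDM5A, with wild-type KDM5A, or with an empty vector (EV), each fixed 24 h later, so all 3 share the knockout, and per the labels' protocols they also share growth medium with G418. Not given in the sources used here were the residues changed in the mutant, the share of cells that took up a plasmid and the number of clones behind the knockout line. Each transfection gave 1 H3K4me3 library, so the ratios below were not checked in replicates and carry no p-value, and their 95% intervals hold counting error alone.

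In the Wnt pathway, a ligand binds Frizzled and LRP receptors, which stops the destruction complex of APC, AXIN1, GSK3B and CSNK1A1 from marking β-catenin (the product of CTNNB1) for degradation. β-Catenin then enters the nucleus and activates target genes together with TCF and LEF factors. In the intestine this pathway maintains the stem cells of the crypt, and HCT116 cells carry an activating mutation of CTNNB1. Several targets encode inhibitors that act back on the pathway, and KDM5A removes methyl groups from the mark measured here.

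Promoter sequences are shown for LEF1 and TCF7, DNA-binding factors of the pathway that differed in the size of their ratios, and for RNF43, whose RPM was highest with wild-type KDM5A. They came from RefSeq on GRCh38.p14, which held 3 of the 10 genes with 5 starts in all, 1 for LEF1 and 2 each for TCF7 and RNF43, of which the first listed is printed. They run from 250 bases before to 50 after a start. CpG dinucleotides, the usual sites of DNA methylation, are in capitals.
LEF1: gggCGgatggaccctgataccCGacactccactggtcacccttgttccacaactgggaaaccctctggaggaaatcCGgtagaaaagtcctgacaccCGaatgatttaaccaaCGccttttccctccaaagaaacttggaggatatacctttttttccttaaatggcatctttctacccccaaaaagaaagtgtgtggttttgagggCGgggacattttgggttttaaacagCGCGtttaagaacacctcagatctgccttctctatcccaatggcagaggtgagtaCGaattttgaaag
TCF7: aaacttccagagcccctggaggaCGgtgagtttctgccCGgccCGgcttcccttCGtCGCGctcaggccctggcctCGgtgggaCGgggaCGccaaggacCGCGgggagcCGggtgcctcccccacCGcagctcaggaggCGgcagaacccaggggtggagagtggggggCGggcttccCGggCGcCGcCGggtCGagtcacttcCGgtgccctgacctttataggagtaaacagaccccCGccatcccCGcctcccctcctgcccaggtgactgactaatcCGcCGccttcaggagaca
RNF43: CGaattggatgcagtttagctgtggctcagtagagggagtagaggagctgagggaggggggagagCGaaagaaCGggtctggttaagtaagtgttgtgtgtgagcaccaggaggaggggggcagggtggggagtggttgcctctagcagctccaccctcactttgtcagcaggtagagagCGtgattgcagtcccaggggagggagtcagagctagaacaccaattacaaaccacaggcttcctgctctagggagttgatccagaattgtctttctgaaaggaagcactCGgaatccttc
The LEF1 sequence lies at chr4:108166252-108166551 on the minus strand, the TCF7 sequence at chr5:134115363-134115662 on the plus strand and the RNF43 sequence at chr17:58417485-58417784 on the minus strand, all in GRCh38.p14 coordinates. The TCF7 sequence held 25 CpG and those of LEF1 and RNF43 9 and 5, where the median of the 35116 promoters of the table was 14. CpG observed over expected was 0.54 for LEF1, 0.69 for TCF7 and 0.25 for RNF43, against a median of 0.58. The 2 starts of TCF7 differed as much as the genes did, since its other promoter held 3 CpG (0.12 observed over expected), and the other RNF43 promoter held 0. The start used for LEF1 lies 2631 bp and that for TCF7 7395 bp inside the outer end of the gene, and since the regions are on hg19, it was not settled whether they cover these starts. The TCF and LEF core sequences CTTTGAT and CTTTGAA, searched on both strands, were in none of the 5 windows, and 6.86% of all promoters of the table held at least 1 of them.

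The libraries held 9906508 reads for mutant KDM5A, 10852411 for wild-type KDM5A and 10713021 for EV. Values are in RPM (reads per 1000000 of the library), and 1 read is worth 0.0921 to 0.101 RPM. The listed regions together held 56.9% of the reads of the mutant library, 60.7% of those of the wild-type library and 67.0% of those of EV, which is the order found at most of the genes below, and the part of this library-wide difference in their ratios was not tested. All 4 epithelial markers looked up (EPCAM, CDH1, KRT18 and KRT19) had a region at their start, with 42.7 to 69.1 RPM for mutant KDM5A, 45.6 to 78.9 RPM for wild-type KDM5A and 51.7 to 85.0 RPM for EV. Of 3 markers of other cells, PTPRC and CD3E (blood cells) had no region and COL1A1 (fibroblasts) had 40.9, 41.6 and 47.0 RPM in the mutant, wild-type and EV libraries.

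Per kb of region, the mark was densest at MYC and AXIN2 and sparsest at LEF1, with no correction for input reads or DNA copy number. MYC, the growth-promoting transcription factor, ran from 21.7 to 27.3 RPM per kb over the 3 libraries, and AXIN2, a scaffold of the destruction complex, from 20.3 to 26.6 RPM per kb. CCND1, which encodes cyclin D1, followed with 15.9 to 20.04 RPM per kb and NKD1, an inhibitor that binds Dishevelled, with 15.5 to 19.5 RPM per kb. ZNRF3, a ubiquitin ligase that removes Frizzled receptors, had 13.6 to 16.9 RPM per kb and TCF7 12.2 to 15.6 RPM per kb. ASCL2, a transcription factor of intestinal stem cells, had 6.23 to 9.36 RPM per kb, LGR5, the R-spondin receptor that marks these cells, 6.18 to 8.79 RPM per kb, and the main region of RNF43, the ubiquitin ligase paired with ZNRF3, 5.12 to 7.004 RPM per kb. LEF1 had 1.06 to 3.16 RPM per kb. Between neighbours in this order the ranges overlapped except for AXIN2 over CCND1, TCF7 over ASCL2 and RNF43 over LEF1. The median density of the stronger regions, which here means the 15420 whose mean over the libraries was at or above the table median of 4.70 RPM, was 15.0 RPM per kb.

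**Figure D1:**
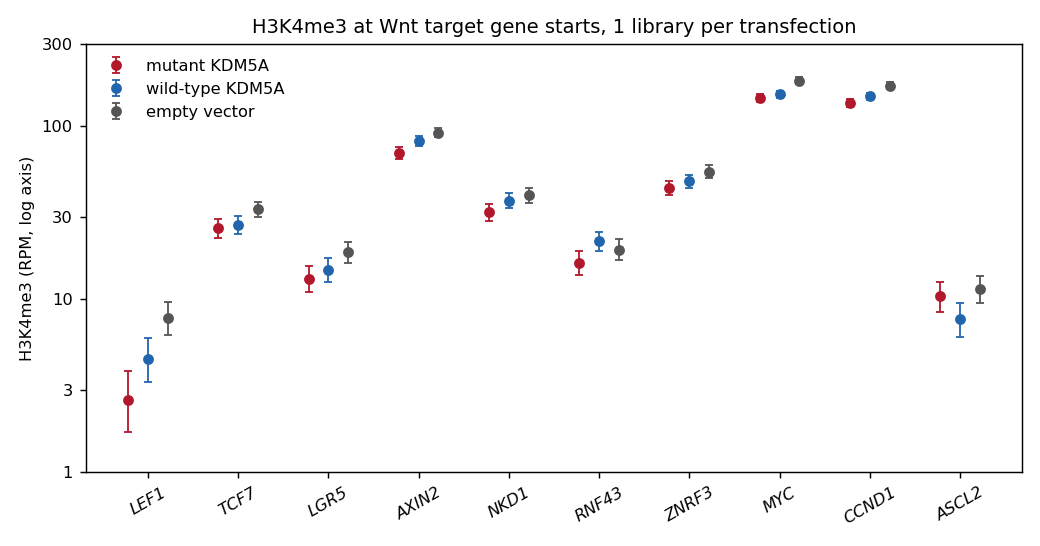
H3K4me3 at each Wnt target gene (x axis) in RPM on a log axis, summed over its regions, for mutant KDM5A, wild-type KDM5A and EV, 1 library each; bars are exact 95% Poisson intervals of the reads. Under the scaling by total reads EV is highest at every gene but RNF43, and LEF1 is lowest in level, with 2.62, 4.52 and 7.84 RPM.

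The width of the marked region varied as well. The regions of CCND1 and MYC were 8.60 and 6.74 kb wide and among the strongest in the table, each with a mean RPM above that of 99.9% of listed regions. AXIN2, ZNRF3 and RNF43 had main regions of 3.47, 3.24 and 3.04 kb, LEF1 one of 2.48 kb, and LGR5, TCF7 and NKD1 ones of 2.12, 2.12 and 2.05 kb, around the median of 2.39 kb for the stronger regions. ASCL2 had the narrowest, 1.23 kb, and it was also the 1 gene whose region did not include the start position. Its nearer edge lay 911 bp from that position, which was given to the nearest kb, and this gap is larger than such rounding can close.

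**Figure D2:**
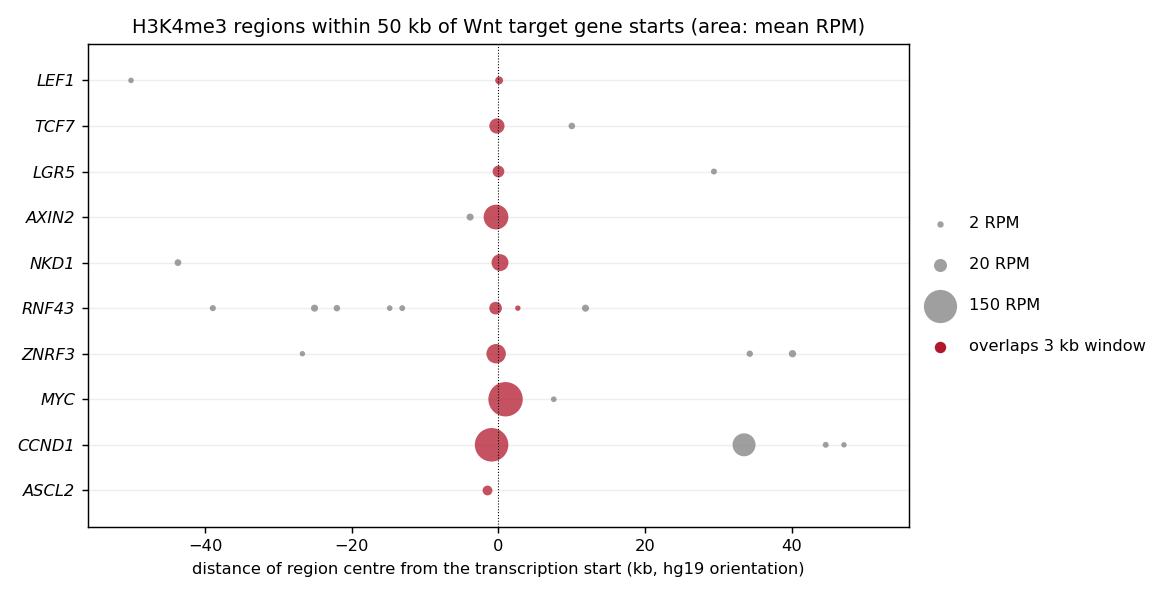
Regions within 50 kb of each Wnt target gene, placed by the distance of their centre from the transcription start in kb; the area of a point shows the mean RPM, and regions that overlap the 3 kb window are red. Within 50 kb only CCND1 has another region of 20 RPM or more, with a mean of 69.9 RPM.

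Mutant KDM5A against EV was lower at all 10 genes under the scaling by total reads, where 70.5% of all regions and 91.2% of the stronger regions were also lower. The genes had a median log2 ratio (RPM plus 0.7) of −0.33, against −0.18 over all regions and −0.23 over the stronger regions. The intervals of 8 ratios lay wholly below 1, and the share of all regions with such an interval was not computed. The median of the stronger regions was excluded by 2 intervals, those of LEF1 and AXIN2. The share of the stronger regions whose own interval excludes it was not computed either. The 30 intervals of the 3 comparisons are not adjusted for their number. At least 1.5-fold lower on this scale was 1 gene of 10, LEF1, where 8.15% of all regions, 13.9% of those with a mean under 5 RPM (as LEF1 has) and 2.36% of the stronger regions were. None was at least 1.5-fold higher, against 6.61% and 0.344%. Scaling the libraries to a median ratio of 1 over the stronger regions left the median of the 10 genes at −0.092 and 9 of them below 0, with ASCL2 at 0.091. In a bulk library, fewer cells carrying the mark and less of it per cell cannot be told apart, and RPM cannot separate less of the mark everywhere from a less efficient pull-down.

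Wild-type KDM5A against EV was lower at 9 of 10 genes, where 66.7% of all regions and 83.7% of the stronger regions were also lower. The genes had a median log2 ratio of −0.23, against −0.11 over all regions and −0.14 over the stronger regions. The intervals of 8 ratios lay below 1, again without a share over all regions. The median of the stronger regions was excluded by 4 intervals, with LEF1, ASCL2 and MYC below it and RNF43 above it. For this count too, no share of the stronger regions was computed. LEF1 was again the 1 gene at least 1.5-fold lower, beside 6.53% of all regions, 11.9% of those under 5 RPM and 1.11% of the stronger regions, and none was higher by as much (6.23% and 0.357%). After scaling to a median ratio of 1 the median was −0.088, with RNF43 and NKD1 above 0. Both comparisons use the same EV library, so their values do not come from independent data.

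Mutant against wild-type KDM5A was lower at 9 of 10 genes and higher at ASCL2, where 63.7% of all regions and 75.4% of the stronger regions were lower. The genes had a median log2 ratio of −0.15, against −0.077 over all regions and −0.092 over the stronger regions. The intervals of 5 genes lay below 1 (AXIN2, CCND1, NKD1, RNF43 and LEF1) and that of ASCL2 above it, without a share over all regions. The median of the stronger regions was excluded by 2 intervals, with RNF43 below it and ASCL2 above it, again without a share of the stronger regions. LEF1 alone was at least 1.5-fold lower, beside 5.45% of all regions, 10.2% of those under 5 RPM and 0.59% of the stronger regions, and none was higher by as much (5.19% and 0.136%). LEF1 no longer passed after scaling to a median ratio of 1, at −0.57, and TCF7 and MYC then lay above 0.

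**Figure D3:**
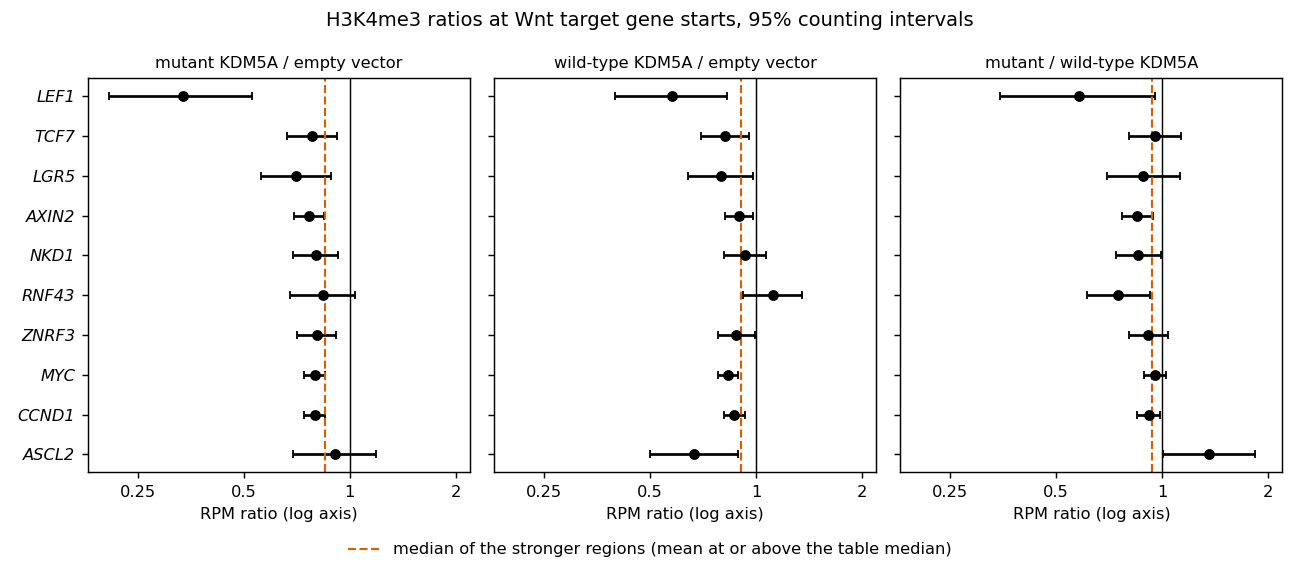
RPM ratio on a log axis for each Wnt target gene, for mutant KDM5A over EV, wild-type KDM5A over EV and mutant over wild-type KDM5A; bars are exact conditional 95% intervals, and the dashed line is the median of the stronger regions. LEF1 stands farthest left in each panel, and ASCL2 and RNF43 lie on other sides of the line in different panels; relative to the dashed line, NKD1 is above in the second panel, and TCF7 and MYC in the third.

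LEF1, an HMG-box factor through which β-catenin activates targets and itself a target, was the lowest of the 10 genes in every comparison. Its region at chr4:109087854-109090334 (hg19) held 26 reads for mutant KDM5A, 49 for wild-type KDM5A and 84 for EV, that is 2.62, 4.52 and 7.84 RPM. The RPM ratio of mutant KDM5A to EV was 0.335 (0.207 to 0.525) and that of wild-type KDM5A to EV 0.576 (0.396 to 0.829). Mutant KDM5A was also below wild-type KDM5A, with a ratio of 0.581 (0.347 to 0.954), an interval that includes the median of the stronger regions. Of the 15420 stronger regions, 4 had a lower log2 ratio of mutant KDM5A to EV than the −1.36 of LEF1, 101 had a lower one of wild-type KDM5A to EV than its −0.71, and 38 a lower one of mutant to wild-type KDM5A than its −0.65. The region is weak, with a mean of 4.99 RPM near the lower limit of the stronger regions, where their ratios spread most.

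TCF7, the related HMG-box factor, had smaller differences than LEF1. The intervals of the 2 genes lay apart for mutant KDM5A to EV and overlapped in the other comparisons. Its region at chr5:133449731-133451852 had 25.8 RPM for mutant KDM5A, 27.0 RPM for wild-type KDM5A and 33.1 RPM for EV. Both KDM5A libraries were below EV, with ratios of 0.780 (0.661 to 0.918) for mutant and 0.815 (0.696 to 0.954) for wild-type KDM5A, and both intervals include the median of the stronger regions. The mutant and wild-type libraries differed by less than counting error (0.957, 0.806 to 1.14).

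LGR5 had, at chr12:71832939-71835063, 13.1 RPM for mutant KDM5A, 14.8 RPM for wild-type KDM5A and 18.7 RPM for EV. Its ratio of mutant KDM5A to EV was 0.703 (0.559 to 0.881), with 856 of the stronger regions, 5.55%, lower, and that of wild-type KDM5A to EV was 0.795 (0.642 to 0.983). LGR5 was second to LEF1 for mutant KDM5A over EV, but both of its intervals against EV include the median of the stronger regions. Mutant and wild-type KDM5A did not differ beyond counting error (0.885, 0.697 to 1.12).

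Among the feedback inhibitors, AXIN2 alone had an interval of mutant KDM5A to EV that excluded the median of the stronger regions. Its region at chr17:63554934-63558405 had 70.4 RPM for mutant KDM5A, 82.7 RPM for wild-type KDM5A and 92.2 RPM for EV. The ratio of mutant KDM5A to EV was 0.763 (0.691 to 0.841), an interval wholly below that median, and 2155 of the stronger regions, 14.0%, were lower. This ratio lies within the intervals of NKD1, ZNRF3 and RNF43, which rest on fewer reads. AXIN2 was therefore not separated from the other feedback inhibitors. The ratio of wild-type KDM5A to EV was 0.896 (0.818 to 0.982), an interval that includes the median of the stronger regions. The mutant library was below the wild-type library (0.851, 0.770 to 0.941), with an interval that also includes the median of the stronger regions.

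NKD1 and ZNRF3 were not separated from the shift of strong regions in general. Their intervals include the median of the stronger regions in all 3 comparisons, as do those of LGR5, TCF7 and CCND1. NKD1, at chr16:50581185-50583237, had 31.9 RPM for mutant KDM5A, 37.2 RPM for wild-type KDM5A and 39.95 RPM for EV. Its ratio to EV was 0.798 (0.688 to 0.926) for mutant KDM5A and 0.932 (0.811 to 1.07) for wild-type KDM5A, and the log2 ratio of wild-type KDM5A to EV lay above 0 (0.042) once libraries were scaled to a median ratio of 1. ZNRF3, at chr22:29278063-29281305, had 44.1 RPM for mutant KDM5A, 48.3 RPM for wild-type KDM5A and 54.9 RPM for EV. Its ratios to EV were 0.804 (0.708 to 0.911) for mutant and 0.880 (0.780 to 0.991) for wild-type KDM5A.

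Under the scaling by total reads RNF43 was the 1 gene at which the wild-type KDM5A library was highest; NKD1 joined it with scaling to a median ratio of 1. Its main region, at chr17:56492091-56495129, had 15.5 RPM for mutant KDM5A, 21.3 RPM for wild-type KDM5A and 19.2 RPM for EV, and a second one of 192 bp had 7, 4 and 2 reads in that order. Over both regions the ratio of wild-type KDM5A to EV was 1.12 (0.922 to 1.35), which includes 1 but not the median of the stronger regions, and 94.7% of the stronger regions had a lower ratio. Mutant KDM5A was below wild-type KDM5A, with a ratio of 0.751 (0.610 to 0.921) and 2.94% of the stronger regions lower. Against EV the mutant library did not differ beyond counting error (0.837, 0.677 to 1.03). ZNRF3, its partner in function, did not share this order of the libraries.

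ASCL2 showed the reverse order of the KDM5A libraries. Its region at chr11:2289863-2291089 held 103 reads for mutant KDM5A, 83 for wild-type KDM5A and 123 for EV, that is 10.4, 7.65 and 11.5 RPM. Wild-type KDM5A was below EV, with a ratio of 0.666 (0.498 to 0.887), and on the log2 scale with the pseudocount its −0.55 did not reach 1.5-fold. Of the stronger regions 1.38% had a lower ratio. Mutant KDM5A did not differ from EV beyond counting error (0.906, 0.690 to 1.19) and was above wild-type KDM5A (1.36, 1.01 to 1.84), where 99.4% of the stronger regions had a lower ratio.

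MYC and CCND1 rest on the most reads and have the narrowest intervals. MYC, at chr8:128745599-128752337, had 1449 reads for mutant KDM5A, 1666 for wild-type KDM5A and 1971 for EV, that is 146, 154 and 184 RPM. Its ratios to EV were 0.795 (0.742 to 0.851) for mutant and 0.834 (0.781 to 0.891) for wild-type KDM5A. The first interval includes the median of the stronger regions and the second lies wholly below it. For wild-type KDM5A to EV, 2701 of the stronger regions, 17.5%, were lower. CCND1, at chr11:69450763-69459362, had 137 RPM for mutant KDM5A, 149 RPM for wild-type KDM5A and 172 RPM for EV. Its ratios to EV were 0.794 (0.739 to 0.852) for mutant and 0.867 (0.811 to 0.928) for wild-type KDM5A. At MYC the mutant and wild-type libraries did not differ beyond counting error (0.953, 0.887 to 1.02), and at CCND1 the mutant was lower (0.915, 0.851 to 0.984).

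**Figure D4:**
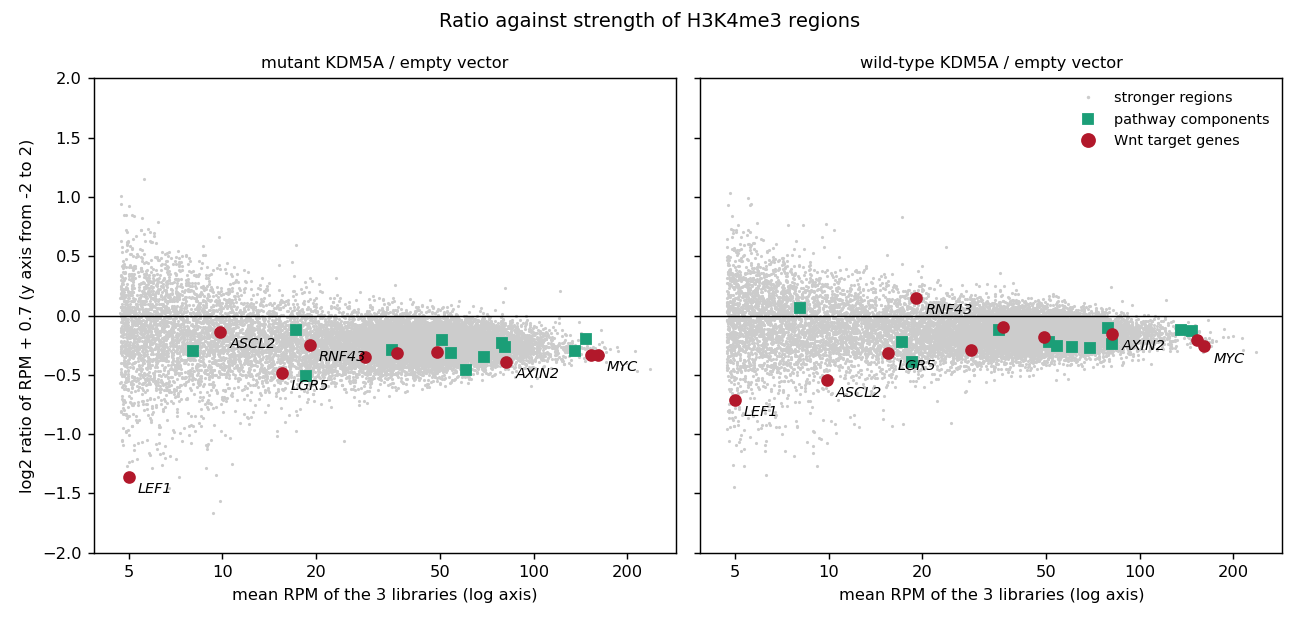
Log2 ratio of RPM plus 0.7 (y axis) against the mean RPM of the 3 libraries on a log axis (x axis) for mutant KDM5A over EV and wild-type KDM5A over EV; grey points are the stronger regions, green squares the 12 pathway components and red points the 10 Wnt target genes. Target genes of 20 RPM or more lie close together, from −0.39 to −0.31 with mutant KDM5A, and those below 20 RPM spread from −1.36 to −0.13.

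The spread among the genes followed the strength of their regions. The 6 genes with a mean of 20 RPM or more (AXIN2, TCF7, NKD1, ZNRF3, MYC and CCND1) had log2 ratios of mutant KDM5A to EV from −0.39 to −0.31, a range of 0.076, and of wild-type KDM5A to EV from −0.29 to −0.10. The 4 weaker genes (LEF1, LGR5, RNF43 and ASCL2) ranged from −1.36 to −0.13 with mutant and from −0.71 to 0.15 with wild-type KDM5A. The median over the 6 stronger genes was −0.33 with mutant KDM5A, against −0.24 over all regions of 20 RPM or more, where the middle 50% ran from −0.32 to −0.17. With wild-type KDM5A it was −0.19, against −0.15 in all such regions, and lay within their middle 50%, which ran from −0.22 to −0.078.

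The order mutant KDM5A below wild-type KDM5A below EV held at 8 of 10 genes, all but RNF43 and ASCL2, where 61.7% of the stronger regions and 40.1% of all regions had it. After scaling to a median ratio of 1 it held at 5 of 10 (AXIN2, LGR5, LEF1, ZNRF3 and CCND1), beside 17.9% of the stronger regions. Counting error does not separate each step. Under the scaling by total reads, AXIN2, CCND1, NKD1 and LEF1 of the 8 genes had the mutant below wild-type KDM5A with an interval below 1. Each of these intervals includes the median of the stronger regions.

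Neighbouring regions did not give a like picture at each gene. The neighbour of AXIN2, at chr17:63552602-63553665, had 3.43 RPM for mutant KDM5A, 1.94 RPM for wild-type KDM5A and 4.57 RPM for EV. Here the wild-type library was lowest, with a ratio to EV of 0.423 (0.241 to 0.719). These values rest on 34, 21 and 49 reads, and 11.9% of regions with a mean under 5 RPM were at least 1.5-fold lower in this comparison. For the neighbours of LGR5, TCF7, NKD1, ZNRF3 and MYC, summed per gene, the intervals of wild-type KDM5A to EV include 1. LEF1 had 1 neighbour within 50 kb, with 5, 13 and 4 reads for mutant KDM5A, wild-type KDM5A and EV, too few to show a difference (mutant to EV 1.35, 0.291 to 6.81). The 6 neighbours of RNF43 together had 13.0, 11.9 and 12.6 RPM in the same order, with ratios to EV of 1.03 (0.805 to 1.33) and 0.943 (0.735 to 1.21). The strong neighbour of CCND1, at chr11:69488010-69491013, had 65.2 RPM for mutant KDM5A, 67.0 RPM for wild-type KDM5A and 77.4 RPM for EV. ASCL2 had no other region within 50 kb.

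The components that carry the Wnt signal, 12 genes from receptors to nuclear cofactors, all had a region at their start. None was past 1.5-fold in any of the 3 comparisons. Their median log2 ratio was −0.29 for mutant KDM5A to EV, −0.22 for wild-type KDM5A to EV and −0.097 for mutant to wild-type KDM5A. Below 0 were 12, 11 and 10 of the 12 in that order of comparisons, where 91.2%, 83.7% and 75.4% of the stronger regions were, and 8, 7 and 6 of the 12 after scaling to a median ratio of 1. AXIN1, the scaffold related to AXIN2, was lowest against EV, with 15.7 RPM for mutant KDM5A, 17.1 RPM for wild-type KDM5A and 22.7 RPM for EV (0.694, 0.564 to 0.852, and 0.756, 0.621 to 0.918). Both intervals include the median of the stronger regions. The receptor FZD7 was the 1 component with an interval that excluded it, for mutant KDM5A to EV (0.726, 0.648 to 0.813). APC, which holds the destruction complex together, had 17.1, 15.9 and 18.7 RPM for mutant KDM5A, wild-type KDM5A and EV. It had the highest log2 ratios of mutant KDM5A to EV (−0.13) and to wild-type KDM5A (0.094), and each of its intervals includes 1. BCL9, a cofactor of β-catenin, had 6.76, 8.94 and 8.49 RPM in the same order, summed over 2 regions. The sum gave the highest log2 ratio of wild-type KDM5A to EV (0.068) and the lowest of mutant to wild-type KDM5A (−0.37). Each interval of the sum includes 1. The region at the start of BCL9 had 5.96, 7.83 and 7.84 RPM, so there wild-type KDM5A was not above EV. The other region, of 310 bp, had 8, 12 and 7 reads. The order of libraries from mutant up to EV held at 9 of the 12 components, beside 61.7% of the stronger regions. After scaling to a median ratio of 1 it held at 2 of the 12, beside 17.9% of the stronger regions.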

How the data were processed

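H3K4me3 ChIP-seq libraries of 3 transfections were compared; the 3 input libraries and the pooled IgG library were not analysed here. The deposited table gives RPM per region, as the authors computed it. The submitters' processing notes name hg19 as the build and, as tools, deepTools 3.5.6, HOMER, MACS2, MACS and Bowtie2 2.5.4; the sources used here do not say how peaks were called, merged and counted. The header of the EV column names H3K4me4, read as a slip for H3K4me3.

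Regions overlapping 3 kb on either side of a start were summed per gene. Log2 ratios used RPM plus 0.7. Plain RPM ratios have exact conditional (Clopper-Pearson) 95% intervals from reads, obtained by dividing RPM by the value of 1 read, which left 100% of the values of every library within 0.02 of a whole number. PCR copies are not independent molecules. No count model was run on single libraries. The 1.5-fold rule was run on simulated reads with no library-wide difference. That run, whose outcome is not reported here, cannot show how the rule behaves under the difference between these libraries. All 10 target genes are named. Of 12 components, those with extreme ratios, past 1.5-fold or with an interval that excludes the median of the stronger regions are named. The hg19 starts of components and markers were set from general knowledge to the nearest kb, and for all 29 genes they agreed in chromosome with RefSeq (GRCh38.p14) and lay within 1.97 Mb of a gene end there, a check for gross errors only. Members and lists were chosen with earlier results of these data known, and neighbouring regions within 50 kb were added after the values were seen. Alternatives were other pseudocounts, scalings, windows, thresholds, the strongest region alone and removal of a lowess trend (span 0.3). Software was scipy 1.17.1, statsmodels 0.14.6, pandas 2.3.3 and numpy 2.4.6 under Python 3.11.15.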

Additional observations from a re-analysis of the deposited data

How the results depend on the processing

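Pseudocounts of 0.07 and 3.5 RPM, windows of 1 and 10 kb and the strongest region alone kept the direction of all 30 ratios (10 genes in 3 comparisons) and moved none beyond its counting interval. Scaling mattered more, and the scalings remove the difference in reads within regions (56.9% for mutant KDM5A, 60.7% for wild-type KDM5A and 67.0% for EV). For mutant KDM5A to EV the median over the 10 genes was −0.092 (log2) with scaling to a median ratio of 1, −0.096 with equal sums over regions and −0.073 with a lowess trend removed; for wild-type KDM5A to EV it was −0.088, −0.089 and −0.062, and for mutant to wild-type KDM5A −0.057, −0.060 and −0.054. Each of the scalings changed the sign of 4 of the 30 ratios and trend removal that of 5. LEF1, the 1 gene at least 1.5-fold lower, kept that call for mutant KDM5A to EV under every alternative run. For wild-type KDM5A to EV the count was 0 with a pseudocount of 3.5 RPM and at a 2-fold threshold, and for mutant to wild-type KDM5A it was 0 under both of these and with scaling to a median ratio of 1. The count of genes ordered mutant below wild-type KDM5A below EV was 5 with that scaling, an alternative chosen after seeing the data. No paired analysis was possible because each group has 1 library; for the same reason no library could be left out. Depth limits LEF1, with 26 to 84 reads, and ASCL2, with 83 to 123 reads, most.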
